A study of Rattus norvegicus with 12 samples.

Results

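Fmr1 encodes FMRP, the RNA-binding protein whose loss causes fragile X syndrome, and the arrays described here followed its transcript together with those of its paralogs and of the proteins that act beside it in translation. The members were chosen by gene name: Fmr1, its paralogs Fxr1 and Fxr2, the FMRP partners Cyfip1 and Cyfip2, the polyadenylation factors Cpeb1 and Cpeb4, the cap-binding protein gene Eif4e and its inhibitor Eif4ebp1. Every non-control probe whose RefSeq accession names one of these rat genes was taken, which gave 14 probes for the 9 genes, out of 30367 probes and 15154 named genes on the array. Fmr1, Cyfip2, Cpeb1, Cpeb4 and Eif4e had 2 probes each, and the other genes had 1.

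The RNA came from primary hippocampal neurons of Wistar rat embryos at E18, kept in culture for 14 to 15 days. Part of the cultures went through oxygen and glucose deprivation (OGD, a glucose-free saline in an anaerobic chamber, which models ischemia in a dish), and the controls sat in saline with 25 mM glucose under air and CO2. Both then recovered in conditioned medium for 7 h or 24 h, so that the 12 arrays form 4 groups of 3: control and OGD at 7 h, control and OGD at 24 h. The labels name 3 cultures as the replicates of a group and do not say whether control and OGD arrays of 1 number share a preparation, and the p-values measure the spread between the arrays of a group. No allele, transgene or drug enters any group.

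At rest FMRP sits on a set of neuronal mRNAs, many of them coding for synaptic proteins, and holds back their translation, partly by recruiting CYFIP1, which binds eIF4E and keeps the cap-binding complex from forming. CYFIP1 and CYFIP2 also belong to the WAVE complex, which drives actin branching at the synapse. CPEB proteins bind a U-rich element in the 3′ end of dormant mRNAs and switch their poly(A) tail length, and 4E-BP1, the product of Eif4ebp1, blocks eIF4E until mTOR phosphorylates it.

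A one-color array reports the fluorescence of a probe as a measure of its labeled RNA. Values are given as log2 intensity relative to the median probe of the same array, so that 1 unit is a 2-fold change and 0 is the median probe of that array. Median spot intensities ran from 130.6 to 660.3 units, and between 78.3% and 87.1% of spots stood well above background. The arrays of replicate 1 after OGD were the dimmest of each time, at 234.2 units at 7 h and 130.6 units at 24 h. These 2 arrays, and that of OGD replicate 2 at 7 h, were also scanned between 177 and 211 min before the control array on the same slide. Of the 10 neuron markers listed, 10 were well above background on all 12 arrays, and in the lists of other cells Ptprc of microglia and Tek of vessels were so on none. In RNA from whole cultures, fewer cells of a type and less RNA per cell cannot be told apart. All 14 member probes were well above background on all 12 arrays, and none was saturated.

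After Benjamini-Hochberg adjustment over all probes, limma called 0 probes at 7 h and 0 at 24 h, member or not, with a lowest adjusted p of 0.117 and 0.209. Before adjustment, limma gave a p under 0.05 for 3590 probes of the earlier time and 4160 of the later. By the methods' t-test there were 4698 and 1923 such probes, with 1 and 0 left after adjustment. None of the differences below passed the adjustment, so they are described by their size and spread, with the limma p adjusted over all probes. Among the member probes, 2 of 14 had an unadjusted p under 0.05 at 7 h, where 11.8% of all probes did, and 1 of 14 at 24 h, where 13.7% did. These shares lie near the background. The probes were Fmr1 A_44_P180017 and Cpeb4 A_64_P038172 at 7 h, both higher after OGD (4.79% of all probes were, in this direction), and Cyfip2 A_44_P380332 at 24 h, lower after OGD (6.19% of all probes).

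**Figure D1:**
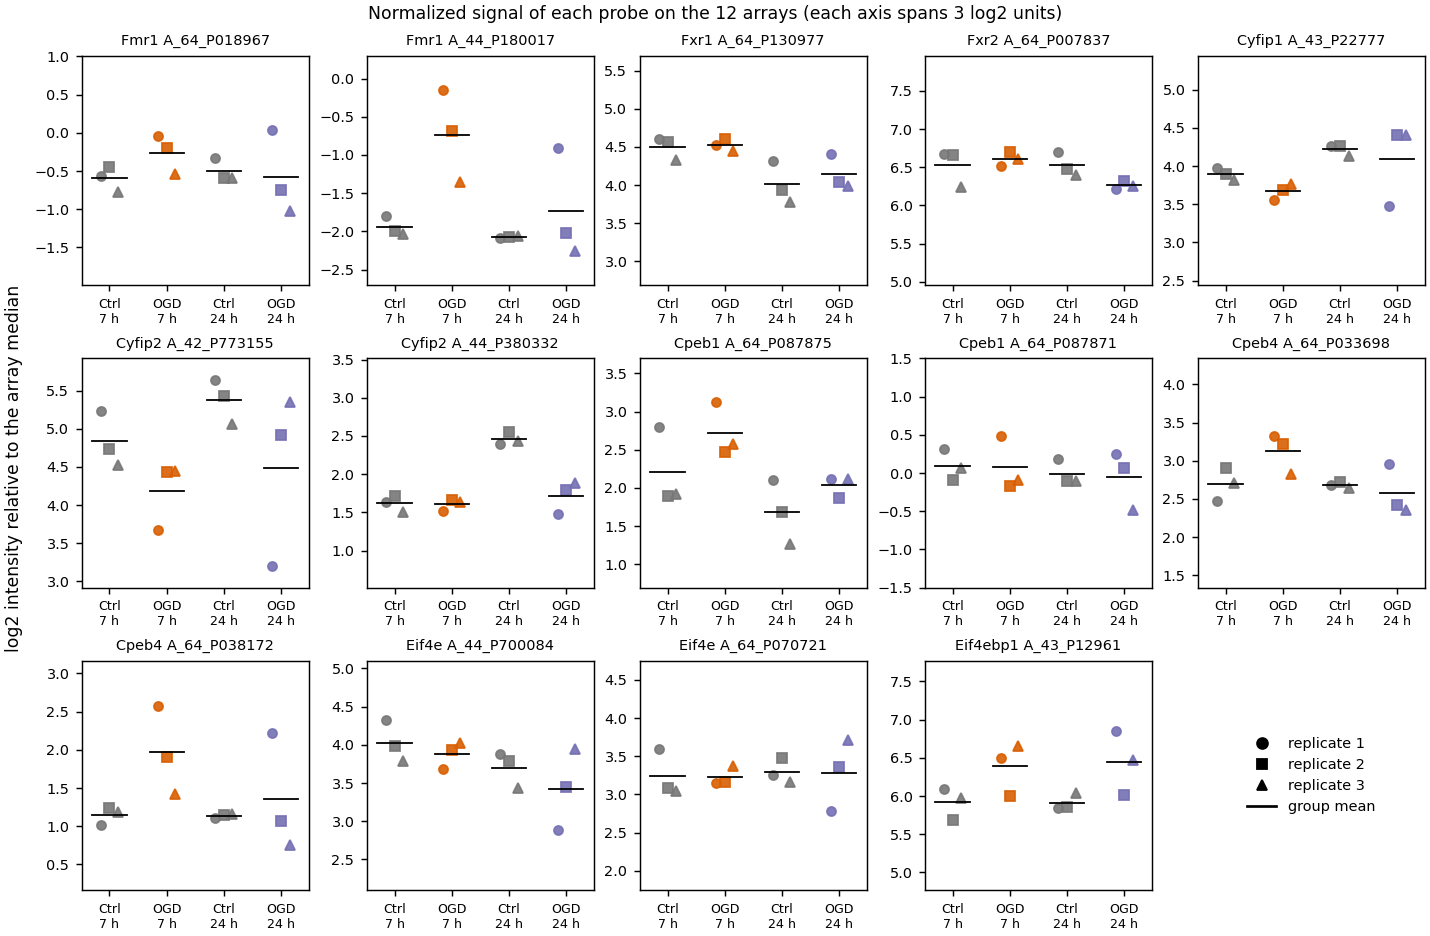
Normalized signal of the 14 member probes on the 12 arrays; the y axis is log2 intensity relative to the array median and spans 3 units in every panel, points are arrays (circle, square and triangle for replicates 1, 2 and 3) and lines are group means. For Fmr1 A_44_P180017 the 3 OGD arrays at 7 h sit between -1.36 and -0.15, all above the controls, and for Cyfip2 A_44_P380332 the 3 controls at 24 h sit above every other array.

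Fmr1 itself was measured by 2 probes that differed in how much they moved. The brighter, A_64_P018967, read -0.57, -0.45 and -0.77 on the control arrays at 7 h and -0.04, -0.20 and -0.54 after OGD. Replicates 1 and 2 after OGD lay above every control, and replicate 3 lay between the controls. The mean difference was 0.34 (SE 0.27, adjusted p = 0.636), or 1.26-fold, and it was positive on each of the 3 slides that pair a control with an OGD array (0.53, 0.25 and 0.23). At 24 h the same probe read -0.33, -0.59 and -0.59 in controls and 0.04, -0.75 and -1.03 after OGD. The OGD arrays lay on both sides of the controls there, with replicate 1 above and the others below, and the difference was -0.08 (SE 0.27, adjusted p = 0.943).

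The second Fmr1 probe, A_44_P180017, was dim, with raw intensities of 40.05 to 111.9 units over the 12 arrays. It read -1.80, -1.99 and -2.03 in controls at 7 h and -0.15, -0.69 and -1.36 after OGD. All 3 OGD arrays were above all 3 controls, and the spread after OGD was several times that of the controls. The difference was 1.20 (SE 0.36, adjusted p = 0.276), a 2.31-fold higher signal, with 1.65, 1.30 and 0.67 on the 3 slides. It was the only member probe with both an unadjusted p under 0.05 and a fold of at least 2 at 7 h, a rule that 3.74% of all probes met, 2.08% in the upward direction. The study took Fmr1 up from these same arrays, so its difference here is not independent evidence. The paper's quantitative PCR did not bear out the rise of Fmr1 at 7 h.

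By 24 h A_44_P180017 read -2.09, -2.08 and -2.06 in controls and -0.91, -2.02 and -2.26 after OGD. Only OGD replicate 1 stood clearly apart from the controls, and the difference of 0.35 (SE 0.36, adjusted p = 0.678) fell to -0.06 without it. Its response at 24 h was smaller than at 7 h by 0.86 on the log2 scale, and the test of that difference gave an adjusted p of 1. Leaving out 1 array gave from -1.27 (without OGD replicate 1 at 24 h, with an unadjusted p under 0.05) to -0.57 (without OGD replicate 1 at 7 h).

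For this probe the dimmer an OGD array was within its time, the higher was its normalized value. OGD replicate 1, the dimmest array of its time and scanned ahead of its slide mate, had the highest value at 7 h and again at 24 h. The array scanned with its control, OGD replicate 3 at 7 h, gave the smallest slide difference of that time. With the 3 arrays scanned earlier left out, OGD replicate 3 was the 1 OGD array left at 7 h, and it stood 0.58 above the mean of the controls. With scan session in the model the difference was 0.48, with an unadjusted p above 0.05. Before centring, the raw intensities were 84.21, 54.35 and 65.21 units in controls and 108.8, 111.9 and 78.78 units after OGD at 7 h, so the ranges overlapped. The part of array brightness and scan order in the result was not tested.

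Between the 2 Fmr1 probes the log2 ratio (A_44_P180017 over A_64_P018967) was higher after OGD by 0.87 at 7 h and by 0.42 at 24 h. At both times the OGD and control arrays did not overlap in this ratio (exact permutation test, two-sided, p = 0.1, the smallest that 3 arrays against 3 allow). The probe ratios of Cyfip2, Cpeb1 and Cpeb4 (0.40) at 7 h and of Eif4e (0.27) at 24 h reached this smallest p as well. How often this occurs among all genes with 2 probes was not computed. Over the 12 arrays the 2 Fmr1 probes had a Pearson correlation of 0.80, a description of arrays that share 4 conditions and the same centring. Both probes were higher at 7 h by different amounts. The brighter one turned negative under 2 settings: scaling to the spike-in control probe, which moved the median of all probes at 7 h to -0.86, gave -0.47 for A_64_P018967 and 0.40 for A_44_P180017, and scan session as a covariate gave -0.12 and 0.48. The log2 signal of the spike-in itself ran from 5.58 to 6.75 on the 7 h arrays and from 9.75 to 12.56 on the 24 h arrays. Scaling to it carries that spread into the differences. The files do not say which exon either Fmr1 probe lies in.

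**Figure D2:**
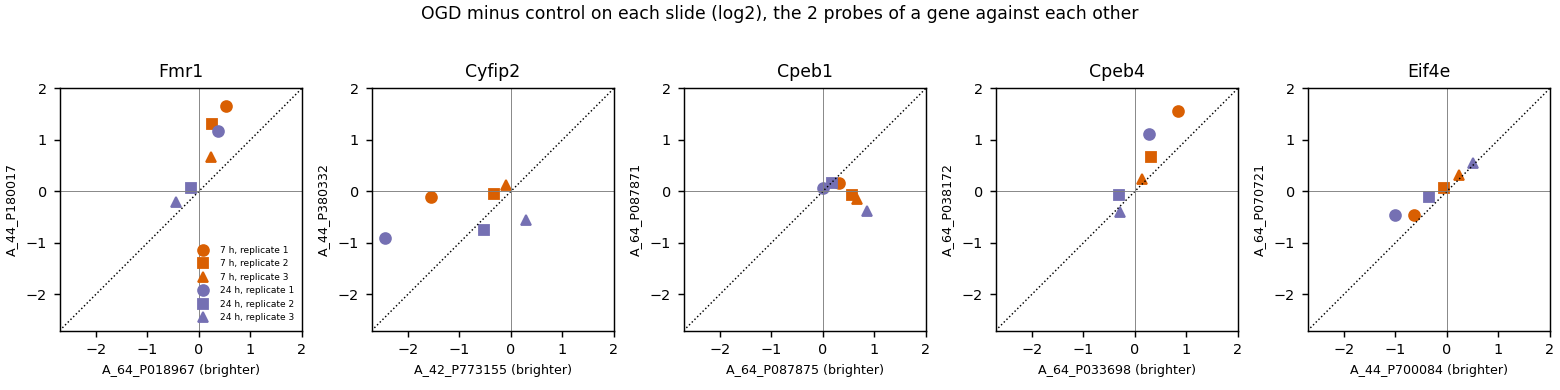
OGD minus control on each slide, in log2, for the genes with 2 probes; the x axis is the brighter probe, the y axis the other, colors mark the time, shapes the replicate, and the dotted line is equality. All 6 slides lie above the line for Fmr1. Within each time the replicate 1 slide lies farthest to the upper right for Fmr1 and Cpeb4 and farthest to the left for Cyfip2.

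Fxr1 and Fxr2, which encode close relatives of FMRP that bind RNA as well, showed small differences at both times. Fxr1 (A_64_P130977) read 4.60, 4.56 and 4.33 in controls and 4.53, 4.60 and 4.45 after OGD at 7 h. The groups overlapped and differed by 0.03 (SE 0.20, adjusted p = 0.964), with an interval from -0.41 to 0.46. At 24 h Fxr1 read 4.32, 3.93 and 3.78 in controls against 4.41, 4.04 and 3.99 after OGD, a difference of 0.14 (adjusted p = 0.773). The OGD array was the higher of its slide in each of the 3 pairs (0.09, 0.11 and 0.22), a gap smaller than the spread between replicates.

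For Fxr2 (A_64_P007837), the values at 7 h were 6.67, 6.66 and 6.24 in controls and 6.51, 6.70 and 6.61 after OGD, which overlapped (difference 0.08, adjusted p = 0.869). At 24 h they were 6.70, 6.47 and 6.40 in controls and 6.21, 6.32 and 6.26 after OGD. Every OGD array was below every control at 24 h, as was the case for 7.02% of all probes in this direction and 17.9% in either. The difference was -0.26 (SE 0.18, adjusted p = 0.516), or 1.20-fold lower. Spike-in scaling, which moved the median of all probes to -0.86 at 7 h and -1.01 at 24 h, turned the differences of Fxr1 at both times and of Fxr2 at 7 h negative, to between -0.89 and -0.73, slightly above those medians. Another background correction (normexp) turned the same 3 differences to between -0.53 and -0.24.

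The CYFIP genes, whose products bridge FMRP to the cap-binding protein and to actin, were level or lower after OGD in most arrays. Cyfip1 (A_43_P22777) read 3.98, 3.90 and 3.82 in controls and 3.55, 3.68 and 3.77 after OGD at 7 h. All OGD arrays lay below all controls, as for 15.5% of probes in this direction, yet the difference of -0.23 (SE 0.24) was within the fitted error (adjusted p = 0.725). At 24 h the controls read 4.26, 4.26 and 4.13 and the OGD arrays 3.48, 4.40 and 4.40. Replicate 1 fell below the controls and the other 2 above, and the difference went from -0.13 with all arrays to 0.18 without OGD replicate 1.

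Cyfip2 was measured by A_42_P773155, printed on 10 spots, and by A_44_P380332. The first, the brighter, read 5.23, 4.74 and 4.53 in controls and 3.68, 4.43 and 4.44 after OGD at 7 h. At 24 h it read 5.64, 5.43 and 5.06 in controls and 3.20, 4.92 and 5.35 after OGD. OGD replicate 1 was by far the lowest array at both times, the groups did not overlap at 7 h and did at 24 h. The differences were -0.66 (SE 0.48, adjusted p = 0.605) at 7 h and -0.89 (SE 0.48, adjusted p = 0.43) at 24 h, and without OGD replicate 1 of each time they shrank to -0.40 and -0.25. Without OGD replicate 3 the difference at 24 h was -1.32, with an unadjusted p under 0.05. Scan session as a covariate turned the difference at 7 h to 0.12.

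A_44_P380332 gave the lowest unadjusted p among the member probes. At 7 h it read 1.63, 1.71 and 1.51 in controls and 1.52, 1.66 and 1.63 after OGD, which overlapped fully, with a difference of -0.01 (SE 0.16, adjusted p = 0.982). At 24 h it read 2.39, 2.55 and 2.44 in controls and 1.48, 1.79 and 1.89 after OGD. The gap between the groups, from 1.89 to 2.39, was wider than the whole spread within either one. The difference was -0.74 (SE 0.16, adjusted p = 0.252), or 1.67-fold lower, and the slides gave -0.91, -0.75 and -0.55. Taking out any 1 array left it between -0.82 and -0.62, and leaving out the 3 arrays scanned earlier gave -0.62, all with an unadjusted p under 0.05.

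Set in order of their means, the 4 conditions of this Cyfip2 probe read 1.61 (OGD, 7 h), 1.62 (control, 7 h), 1.72 (OGD, 24 h) and 2.46 (control, 24 h). The arrays of the first 3 overlapped, and those of the control at 24 h lay above all others. Of the OGD arrays at 24 h, 2 (1.79 and 1.89) also lay above every array at 7 h, and the times were not tested against each other. Arrays of the 2 times lay on different slides, so time and slide cannot be told apart in this order. The OGD response at 24 h minus that at 7 h was -0.73 (SE 0.23, adjusted p = 1), and this was the only member probe with an unadjusted p under 0.05 in that test, which 3.58% of all probes reached, 1.40% in this direction. Against the brighter probe, the ratio of A_44_P380332 was higher after OGD by 0.64 at 7 h (exact permutation p = 0.1) and by 0.15 at 24 h (exact permutation p = 0.9).

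**Figure D3:**
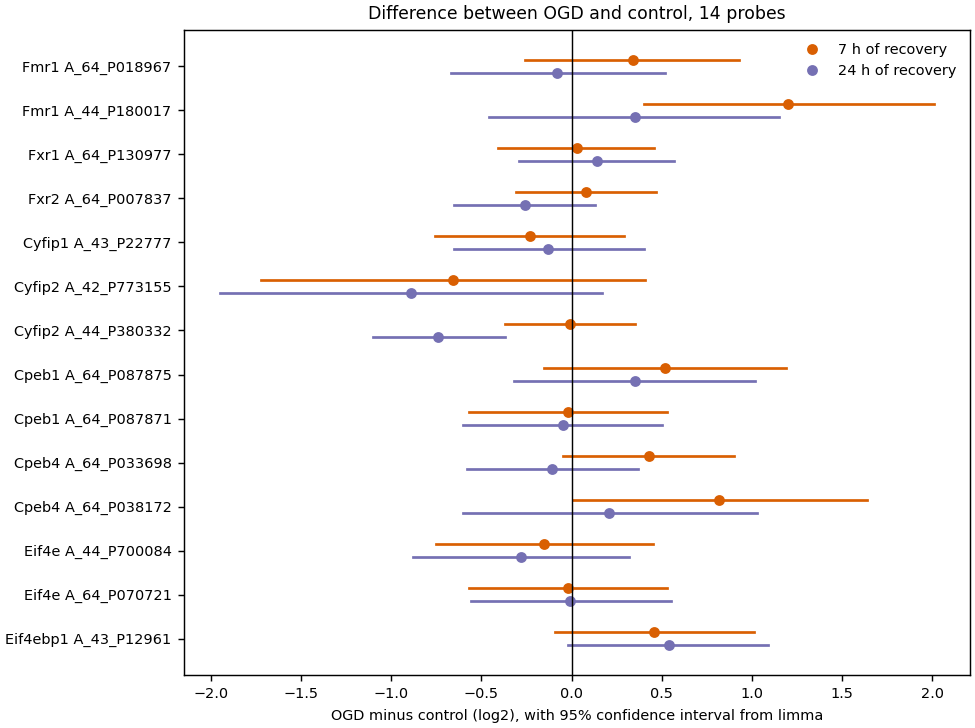
OGD minus control for the 14 member probes at each recovery time; the x axis is the log2 difference, points are limma estimates and lines their 95% confidence intervals, unadjusted for the number of probes. The intervals leave out 0 for Fmr1 A_44_P180017 and, by 0.01, for Cpeb4 A_64_P038172 at 7 h, and for Cyfip2 A_44_P380332 at 24 h.

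Of the CPEB genes, Cpeb4, a cytoplasmic polyadenylation factor that binds many of the same kind of elements as CPEB1, was measured by 2 probes. Its brighter probe A_64_P033698 read 2.48, 2.90 and 2.71 in controls and 3.32, 3.22 and 2.83 after OGD at 7 h. Replicates 1 and 2 after OGD were above all controls and replicate 3 was not, and the difference was 0.43 (SE 0.21, adjusted p = 0.469). Its unadjusted p fell under 0.05 without OGD replicate 3 at 7 h (0.57) and without OGD replicate 1 at 24 h (0.43). The second probe, A_64_P038172, read 1.01, 1.24 and 1.18 in controls and 2.57, 1.91 and 1.42 after OGD. All OGD arrays were above all controls, as for 10.6% of probes in this direction, and the difference was 0.82 (SE 0.37, adjusted p = 0.419), or 1.77-fold. Leaving out OGD replicate 1 at 7 h reduced it to 0.52, with an unadjusted p above 0.05, and leaving out OGD replicate 3 raised it to 1.09. The 1 OGD array at 7 h that was scanned with its control, replicate 3, stood 0.28 above the mean of the controls.

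At 24 h the brighter Cpeb4 probe read 2.68, 2.72 and 2.65 in controls and 2.96, 2.42 and 2.36 after OGD, and the second read 1.11, 1.14 and 1.16 against 2.22, 1.07 and 0.76. On both probes OGD replicate 1 lay above the controls and the other OGD arrays below. The differences were -0.11 (adjusted p = 0.857) and 0.21 (adjusted p = 0.825), and the second turned to -0.22 without OGD replicate 1. All 4 probes of Cpeb4 and Fmr1 ranked the 3 OGD arrays alike at both times, with the earlier scanned replicate 1 on top. Spike-in scaling turned the 7 h difference of the brighter Cpeb4 probe to -0.38 and normexp turned it to -0.04.

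The ranking that Fmr1 and Cpeb4 shared was also that of array brightness, with the dimmest OGD array of each time highest, and its cause was not tested. The reverse ranking, with the dimmest OGD array lowest, held at both times for Cyfip2 A_42_P773155 and both Eif4e probes. It held at 7 h for Cyfip1. How many of all probes follow array brightness was not computed, so the ranking is not particular to these genes. The RefSeq start windows of Fmr1 and Cpeb4 are shown, in build GRCr8 of the rat. Each runs from 250 bases before to 50 after the start that the RefSeq table gives. Capitals mark the E-box CACGTG, searched on both strands and its own reverse complement. The windows are Fmr1 at chrX:152284680-152284979 on the plus strand and Cpeb4 at chr10:16283539-16283838 on the minus strand, written 5′ to 3′ along the gene.
Fmr1: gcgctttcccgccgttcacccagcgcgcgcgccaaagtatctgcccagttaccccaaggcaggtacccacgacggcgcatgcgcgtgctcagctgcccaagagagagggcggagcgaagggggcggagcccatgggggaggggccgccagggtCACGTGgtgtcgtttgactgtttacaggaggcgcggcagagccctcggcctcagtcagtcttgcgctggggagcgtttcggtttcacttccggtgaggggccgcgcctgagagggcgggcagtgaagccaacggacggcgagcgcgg
Cpeb4: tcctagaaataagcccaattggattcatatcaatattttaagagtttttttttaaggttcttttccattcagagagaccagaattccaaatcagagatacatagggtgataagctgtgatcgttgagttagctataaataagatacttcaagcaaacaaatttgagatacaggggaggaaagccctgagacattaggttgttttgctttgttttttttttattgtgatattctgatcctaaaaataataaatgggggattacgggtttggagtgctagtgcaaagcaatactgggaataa
The Fmr1 window held 1 copy of it, and the Cpeb4 window held none. Of 33469 rat windows of 300 bases, 6.42% held CACGTG. The base composition differed as well: 68.7% G and C for Fmr1, more than 89.8% of all windows, and 34.0% for Cpeb4, more than 3.49% of them, around a median of 51.7%. The windows follow the 1 start that the table gives for a gene, which need not be its outermost one: for 5 of the 8 members with a window, Cpeb4 among them, the window lay wholly inside the annotated span of the gene, and the Fmr1 window reached into it. Of the other members, Eif4e held 2 copies of CACGTG and Cpeb1 held 1. A match of letters is a description and does not show that a factor binds there.

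Cpeb1, the founding member of its family, was measured by A_64_P087875 and A_64_P087871. The brighter read 2.80, 1.89 and 1.92 in controls and 3.12, 2.47 and 2.58 after OGD at 7 h. The groups overlapped because control replicate 1 was high, but within each slide the OGD array was the higher, by 0.32, 0.57 and 0.66. The difference was 0.52 (SE 0.30, adjusted p = 0.511) at 7 h and 0.35 (SE 0.30, adjusted p = 0.609) at 24 h. At 24 h the values were 2.11, 1.69 and 1.27 in controls and 2.12, 1.87 and 2.12 after OGD, with most of the gap on the slide of replicate 3. With 1 array left out the differences ran from 0.32 (without OGD replicate 1) to 0.81 (without control replicate 1, with an unadjusted p under 0.05) at 7 h and from 0.14 (without control replicate 3) to 0.56 (without control replicate 1) at 24 h. Spike-in scaling turned these differences to -0.29 and -0.68.

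The other Cpeb1 probe stayed level, between -0.17 and 0.48 at 7 h and between -0.48 and 0.25 at 24 h over both groups, with differences of -0.02 (adjusted p = 0.976) and -0.05 (adjusted p = 0.974). The ratio of the 2 Cpeb1 probes was lower after OGD by 0.54 at 7 h, with no overlap between the groups (exact permutation p = 0.1). Which of the probes reports the full Cpeb1 transcript was not analysed here.

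Eif4e encodes the protein that binds the mRNA cap, an early step of cap-dependent initiation. Its brighter probe A_44_P700084 read 4.32, 3.98 and 3.79 in controls and 3.68, 3.93 and 4.03 after OGD at 7 h. At 24 h it read 3.88, 3.79 and 3.44 in controls and 2.88, 3.45 and 3.95 after OGD. The groups overlapped at both times, with the order of the replicates turned around between control and OGD. The differences were -0.15 (SE 0.27, adjusted p = 0.848) and -0.28 (SE 0.27, adjusted p = 0.654). They ran from -0.27 to -0.01 (without control replicates 3 and 1) at 7 h and from -0.54 (without OGD replicate 3) to 0.00 (without OGD replicate 1) at 24 h when 1 array was left out.

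On the second Eif4e probe, A_64_P070721, the differences were -0.02 at 7 h (interval -0.57 to 0.53) and -0.01 at 24 h (interval -0.56 to 0.55), both in limma. The arrays ran from 3.05 to 3.60 at 7 h and from 2.79 to 3.71 at 24 h. A change of Eif4e smaller than about these intervals was not detectable with 3 arrays a group. Replicate 1 again gave the lowest OGD array at both times, and without it the difference at 24 h was 0.24.

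Eif4ebp1 (A_43_P12961), the gene of the eIF4E inhibitor 4E-BP1, had the higher signal in the OGD array on all 3 slides at both times. All 3 slides were also higher at 7 h for both probes of Fmr1 and Cpeb4 and for Cpeb1 A_64_P087875. The share of all probes with such agreement was not computed. Eif4ebp1 read 6.09, 5.69 and 5.98 in controls and 6.50, 6.0 and 6.66 after OGD at 7 h, and the slides gave 0.40, 0.31 and 0.68. At 24 h it read 5.84, 5.85 and 6.04 in controls and 6.85, 6.01 and 6.47 after OGD, and the slides gave 1.01, 0.17 and 0.43. In each time OGD replicate 2 fell within the range of the controls, so the groups overlapped. The differences were 0.46 (SE 0.25, adjusted p = 0.491) and 0.54 (SE 0.25, adjusted p = 0.375), or 1.38-fold and 1.45-fold. With 1 array left out they ran from 0.33 to 0.66 at 7 h and from 0.33 (without OGD replicate 1) to 0.75 at 24 h, with an unadjusted p under 0.05 at both times when OGD replicate 2 of that time was left out, the setting that gave the highest value. The response at 24 h minus that at 7 h was 0.07 (interval -0.71 to 0.85). Spike-in scaling gave -0.34 and -0.49 for this probe, both above the shifted medians of all probes, and normexp background correction gave -0.16 at 7 h.

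Counted over the members, the groups did not overlap for 4 of 14 probes at 7 h (Fmr1 A_44_P180017 and Cpeb4 A_64_P038172 higher, Cyfip1 and Cyfip2 A_42_P773155 lower), where 26.1% of all probes did not. At 24 h this held for 2 of 14 (Fxr2 and Cyfip2 A_44_P380332, both lower) against 17.9%. The median difference over the brightest probe of each of the 9 genes was 0.08 at 7 h and -0.11 at 24 h, beside -0.11 and -0.03 over all named genes.

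The genes whose brightest probe followed Fmr1 most closely over the 12 arrays differed between its probes. For A_64_P018967 they were Nav3 (Pearson r = 0.958), Ppp1r12b (0.956) and Csnk1e (0.946), and for A_44_P180017 they were Taok3 (0.971), Shbg (0.964) and Rufy2 (0.963), out of 10922 genes compared. The arrays share conditions, slides and centring, so these values describe likeness of pattern alone. No gene appeared in both sets of 3.

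Around the members, 5 lists of genes from the same pathways were followed on the brightest probe of each gene. The lists were chosen with earlier results of these data known, so their counts are descriptions and not tests of the lists. Among known mRNA targets of FMRP, 8 of 12 with a probe were lower after OGD at 24 h with an unadjusted limma p under 0.05 and 0 higher, against 6.90% lower and 6.36% higher among all named genes. Their median difference was -0.82, beside -0.03 over all named genes. At 7 h 1 of 12 was lower (8.06% of named genes were) and the median was -0.37, beside -0.11. This count at 7 h was 4 by the methods' t-test, with limma on each time alone and without OGD replicate 1 at 24 h, and 3 without dim probes. For the later time the count was 7 or 8 with 1 array left out, and without the 3 arrays scanned earlier it was 7 with a median of -0.52. Spike-in scaling left 2 of 12, with a median of -1.84, and the methods' t-test gave 4.

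Among the targets with an unadjusted p under 0.05 at 24 h, the largest differences were in Dlgap3, which encodes a scaffold of the postsynaptic density, in the protease gene Mmp9 and in Gabrd, a GABA-A receptor subunit. Dlgap3 read 2.86, 2.89 and 3.03 in controls and 0.95, 2.46 and 1.56 after OGD at 24 h, with no overlap and a difference of -1.27 (SE 0.32, adjusted p = 0.262). Gabrd read 2.40, 1.79 and 2.13 against 0.40, 1.35 and 1.64, also without overlap, and differed by -0.98 (SE 0.29, adjusted p = 0.274). Mmp9 differed by -2.12 (SE 0.53, adjusted p = 0.254) at 7 h and by -1.19 (SE 0.53, adjusted p = 0.362) at 24 h. It was not well above background on 3 of the 12 arrays, the 3 OGD arrays scanned earlier, and its values there only bound the level from above.

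Dlg4, Camk2a, Shank1, App and Map1b were the other 5 targets lower at 24 h, with differences from -0.87 to -0.56. Sod1 differed by 0.04 (adjusted p = 0.964). The remaining targets, Arc, Kcnd2 and Kcnc1, differed by -1.14, -0.90 and -0.76 with an unadjusted p above 0.05. These 9 genes are named to complete the list, after their values were seen. Markers of neurons were lower at the same time: 4 of 10 had an unadjusted p under 0.05, all lower, with a median of -0.58, and this count was 2 to 5 with 1 array left out. Without the 3 arrays scanned earlier it was 2, with a median of -0.28. Among these Syn1 differed by -1.26 (adjusted p = 0.269) and Eno2 by -1.06 (adjusted p = 0.262). The summed signal of the 10 neuron markers ran from 818 to 1040 times the array median in controls and from 505 to 824 after OGD at 24 h. Dlgap3, Syn1 and Kif3c were all lowest in OGD replicate 1. What part the neuron markers have in the lower FMRP targets was not tested.

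**Figure D4:**
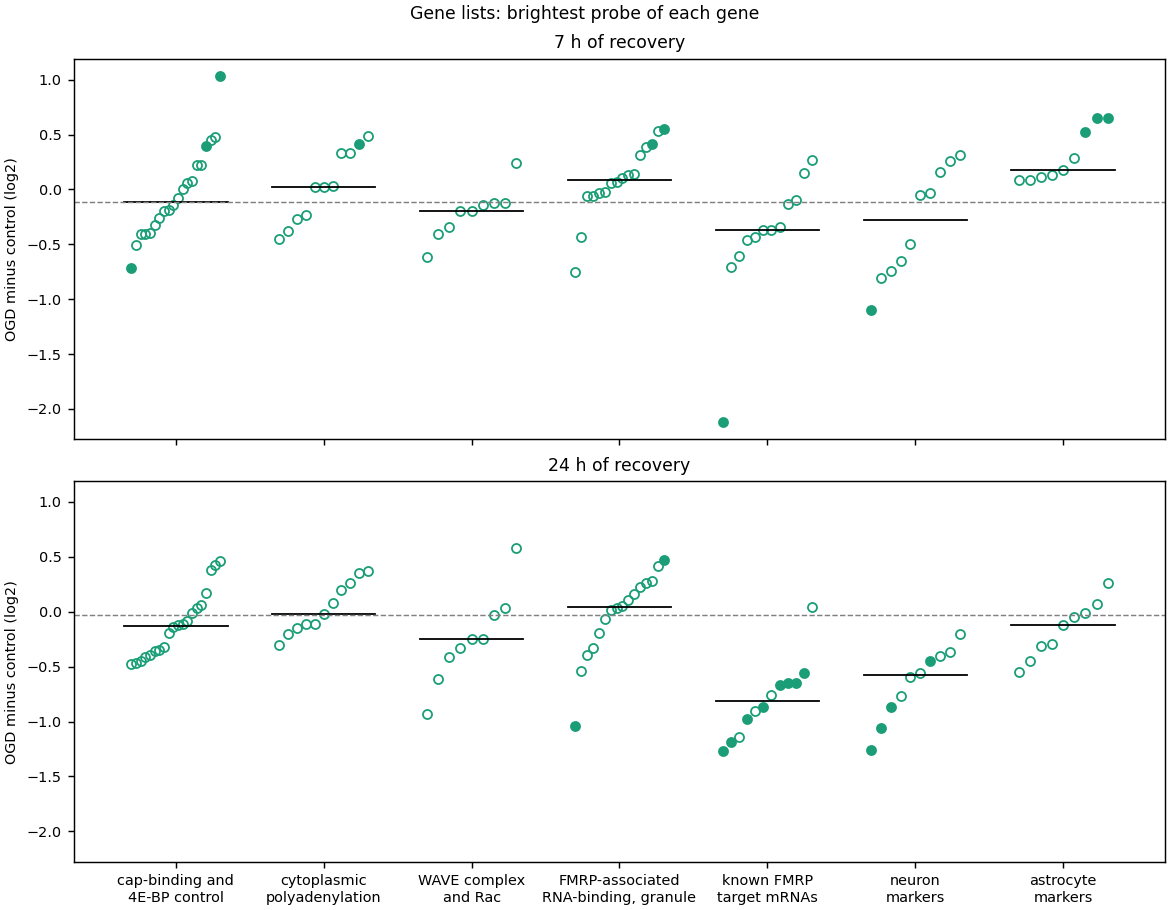
OGD minus control for 5 pathway lists and the neuron and astrocyte markers at 7 h and 24 h; the y axis is the log2 difference, each point is the brightest probe of a gene, filled where the unadjusted limma p is under 0.05, black lines are list medians and the dashed line is the median of all named genes. The known FMRP targets lie below the dashed line at 24 h except Sod1, with a median of -0.82, and the neuron markers follow at -0.58.

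In the cap-binding list (partners of eIF4E and the mTOR pathway), 2 of 20 genes were higher with an unadjusted p under 0.05 and 1 lower at 7 h (3.89% and 8.06% of all named genes), and none at 24 h, with medians of -0.11 and -0.13. These counts at 7 h were 1 to 3 higher and 0 to 3 lower with 1 array left out. As in every list, 1 probe per gene was read, the brightest. Eif4e3, a relative of Eif4e that also binds the cap, read 0.90, 0.48 and 0.45 in controls and 2.03, 1.65 and 1.24 after OGD at 7 h. The groups did not overlap, and the difference was 1.03 (SE 0.22, adjusted p = 0.199), or 2.04-fold. At 24 h the Eif4e3 arrays overlapped, from 0.99 to 1.15 in controls and from 0.81 to 1.08 after OGD. Eif4g2, whose product lacks the eIF4E-binding part of eIF4G, differed by 0.40 (adjusted p = 0.393) at 7 h and by -0.12 (adjusted p = 0.766) at 24 h. The paper lists Eif4g2 among its most strongly up-regulated genes at 24 h, which this probe did not show. Any other probe of Eif4g2 was not read here. Mtor, the kinase that inactivates 4E-BP1, was lower at 7 h by 0.72 on the log2 scale (SE 0.27, adjusted p = 0.352, control over OGD 1.64-fold).

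The polyadenylation list, the factors that act beside the CPEB proteins, had 11 genes with a probe, with median differences of 0.02 at 7 h and -0.02 at 24 h, and none had an unadjusted p under 0.05 in limma at 24 h. Of the 9 WAVE complex and Rac genes measured, the partners of CYFIP, none had an unadjusted p under 0.05 at either time in limma, and the medians were -0.20 and -0.25. Under single arrays left out this count reached 2 lower at 7 h and 3 lower at 24 h.

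Among RNA-binding and granule proteins that associate with FMRP, Ybx1 (0.55, adjusted p = 0.322) and the motor gene Kif5b (0.41, adjusted p = 0.391) were higher at 7 h, 2 of 16 with none lower (3.89% and 8.06% of all named genes). The count of higher genes was 0 without control replicate 2 or OGD replicate 1 at 7 h and with scan session as a covariate, and 4 without OGD replicate 1 or 3 at 24 h. At 24 h, where 6.36% of all named genes were higher and 6.90% lower, 1 of 16 was higher, Ncl (0.47, adjusted p = 0.321), which encodes nucleolin. Kif3c, a kinesin gene whose product carries FMRP granules, was the 1 lower, by -1.04 (SE 0.40, adjusted p = 0.316), with 5.36, 5.23 and 5.06 in controls and 3.07, 4.78 and 4.67 after OGD. Medians of this list were 0.08 and 0.04, beside -0.11 and -0.03 for all named genes.

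Markers of other cells were read by the unadjusted p alone. At 7 h, when the second probes of Fmr1 and Cpeb4 were higher, the summed signal of 9 astrocyte markers ran from 1130 to 1320 times the array median in controls and from 1480 to 1970 after OGD, without overlap, and 3 of 9 were higher with an unadjusted p under 0.05 (3.89% of all named genes were). That count was 0 without control replicate 1 or OGD replicate 1 at 7 h, and with quantile normalization, spike-in scaling or normexp. By 24 h these sums overlapped, at 1300 to 1440 and 1200 to 1540. Microglia had 1 of 10 markers higher at each time (3.89% and 6.36% of all named genes), and their sums were 15.7 to 16.4 against 15.8 to 28.8 at 7 h and 20.9 to 25.4 against 25.2 to 35.4 at 24 h. The oligodendrocyte lineage had 2 of 10 lower at 7 h (8.06% of all named genes) and 1 higher at 24 h (6.36%), and the vascular and fibroblast list had the same counts. Counts this low in lists of 10 genes are descriptions. At 24 h the sums were 260 to 358 in controls against 298 to 489 after OGD for the oligodendrocyte lineage. For vessels and fibroblasts they were 35.9 to 140 against 129 to 235. In that last list 5 markers differed upward at 24 h and 5 downward, with Pdgfrb (1.34, adjusted p = 0.269) the 1 with an unadjusted p under 0.05. The part of these other cells in the members' differences was not tested.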

How the data were processed

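RNA of rat hippocampal cultures, 3 independent cultures per the authors, was labeled with Cy3 and hybridized by the authors to 12 Agilent one-color arrays, on 6 slides that each hold the control and OGD array of 1 time and replicate number. The deposited intensity values were made by the authors with Agilent Feature Extraction, which subtracted background, detrended each array and set no scale between arrays. The authors also deposited normalized log2 values, whose columns have medians between 7.57 and 7.72 and equal the log2 intensities of the same array plus 1 constant. Groups were taken from the sample titles, and no column of per-sample values was left unassigned (0 of them).

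Here, spots marked as outliers were dropped, log2 was taken, replicate spots were averaged per probe, and each array was centred on the median of its non-control probes. Feature Extraction replaces very low spots by a positive value, which can compress the differences of dim probes. Probes were named through RefSeq accessions (GRCr8 gene table, 18004 of 30367 probes matched). The probes were designed on another build, and probe sequences were not used here. Promoter windows came from RefSeq for 8 of the 9 members.

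OGD and control were compared in R 4.3.3 by limma 3.58.1, with all 4 groups in 1 linear model and empirical Bayes moderation (8 residual and 2.64 prior degrees of freedom), two-sided, Benjamini-Hochberg over 30367 probes. The procedure was tested on simulated data. The depth of an array is its brightness, and 3 arrays a group limit the precision.

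The members and gene lists were chosen with earlier results of these data known. All member probes are named, from each pathway list (cap-binding and 4E-BP control, cytoplasmic polyadenylation, WAVE complex and Rac, FMRP-associated RNA-binding and granule proteins, known FMRP targets) at most 3 genes higher and 3 lower at each time with the largest difference at an unadjusted p under 0.05, and for each Fmr1 probe the 3 genes with the highest correlation. Marker lists covered neurons, astrocytes, microglia, the oligodendrocyte lineage, and vessels and fibroblasts. A listed gene was read on its brightest probe. A result of the polyadenylation list at 7 h is not reported here.

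The other settings tried were quantile normalization, 75th percentile centring, spike-in scaling (1 of 10 kinds of spike-in probe was usable), normexp with an offset of 50 (on the median spot signal, as the files used hold no mean signal), a filter on dim probes, the authors' values, outlier spots kept, the mean of a gene's probes, the methods' t-test, limma on each time alone, slide blocks, fixed or random, and each array left out in turn. The scan session as a covariate and the omission of the 3 arrays scanned earlier were chosen after seeing the data.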

Additional observations from a re-analysis of the deposited data

Results flagged for a closer look

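For Cyfip2 A_44_P380332, the OGD difference at 24 h minus that at 7 h was -0.73 on the log2 scale (limma, unadjusted p under 0.05, adjusted p = 1). It ranged from -0.81 to -0.61 with 1 array left out and was -0.57, with an unadjusted p above 0.05, with normexp background correction. Under spike-in scaling its unadjusted p was above 0.05 as well. The brighter Cyfip2 probe gave -0.23 (adjusted p = 1) for the same contrast.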

How the results depend on the processing

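Of the differences with an unadjusted p under 0.05, Cyfip2 A_44_P380332 at 24 h kept its direction under every alternative and its p under 0.05 except under spike-in scaling (-1.76). Fmr1 A_44_P180017 at 7 h also kept its direction, and passed that p except under spike-in scaling (0.40) and with scan session as a covariate (0.48); without the 3 arrays scanned earlier its 0.58 rests on 1 OGD array. Cpeb4 A_64_P038172 at 7 h lost it under most, down to 0.02 under spike-in scaling. Same-slide deviations correlated by -0.05 to 0.17, which cannot settle whether a control and an OGD array of 1 number share a preparation. With the slide as a fixed replicate block, 1 member probe had an unadjusted p under 0.05 at 7 h, Fmr1 A_44_P180017 (1.20).

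Several differences changed sign, among them larger ones of Cyfip2, Cpeb1, Cpeb4 and Eif4ebp1. At 7 h and 24 h in turn, 75th percentile centring gave Cyfip2 A_44_P380332 0.10, Cpeb1 A_64_P087871 0.09 and Eif4e A_64_P070721 0.09, then Fmr1 A_64_P018967 0.04, Cpeb1 A_64_P087871 0.06, Cpeb4 A_64_P033698 0.00 and Eif4e A_64_P070721 0.11. Quantile normalization gave Cyfip2 A_44_P380332 0.08 and Eif4e A_64_P070721 0.09, then Cpeb4 A_64_P033698 0.00 and Eif4e A_64_P070721 0.11. Spike-in scaling gave Fmr1 A_64_P018967 -0.47, Fxr1 -0.78, Fxr2 -0.73, Cpeb1 A_64_P087875 -0.29, Cpeb4 A_64_P033698 -0.38 and Eif4ebp1 -0.34, then Fmr1 A_44_P180017 -0.68, Fxr1 -0.89, Cpeb1 A_64_P087875 -0.68, Cpeb4 A_64_P038172 -0.81 and Eif4ebp1 -0.49. Normexp gave Fxr1 -0.52, Fxr2 -0.53, Cpeb4 A_64_P033698 -0.04 and Eif4ebp1 -0.16, then Fxr1 -0.24 and Cpeb4 A_64_P038172 -0.09. The authors' values gave Cyfip2 A_44_P380332 0.01, Cpeb1 A_64_P087871 0.00 and Eif4e A_64_P070721 0.01 at 7 h. Scan session as a covariate gave Fmr1 A_64_P018967 -0.12, Fxr1 -0.15, Cyfip1 0.12, Cyfip2 0.12 on both probes, Eif4e A_44_P700084 0.19 and A_64_P070721 0.30, then Fmr1 A_44_P180017 -0.02, Cyfip1 0.05, Cpeb4 A_64_P038172 -0.14 and Eif4e A_64_P070721 0.15. Without the 3 arrays scanned earlier, Fxr1 was -0.05, Cyfip2 A_44_P380332 0.01 and Eif4e A_64_P070721 0.12, then Fmr1 A_44_P180017 -0.06, Cyfip1 0.18, Cpeb4 A_64_P038172 -0.22 and Eif4e A_64_P070721 0.24. The mean of a gene's probes gave 0.13 for Fmr1 and 0.05 for Cpeb4 at 24 h. With 1 array left out, the ranges that crossed 0 at 7 h were Fxr1 -0.06 to 0.08, Fxr2 -0.06 to 0.15, Cyfip2 A_44_P380332 -0.06 to 0.04, Cpeb1 A_64_P087871 -0.22 to 0.10 and Eif4e A_64_P070721 -0.12 to 0.16. At 24 h they were Fmr1 A_64_P018967 -0.39 to 0.15, Fmr1 A_44_P180017 -0.06 to 0.61, Cyfip1 -0.28 to 0.18, Cpeb1 A_64_P087871 -0.20 to 0.17, Cpeb4 A_64_P033698 -0.30 to 0.00, Cpeb4 A_64_P038172 -0.22 to 0.51 and Eif4e A_64_P070721 -0.22 to 0.24.

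The number of probes with an unadjusted p under 0.05 at 7 h, 24 h and for the difference between the times was 358, 537 and 27 under spike-in scaling and 5845, 1477 and 64 with normexp. It was 1923 at 24 h by the methods' t-test, 5453 and 2574 with limma on each time alone, 1803 at 7 h and 1821 for the difference with scan session as a covariate, and 1760 at 7 h without the 3 arrays scanned earlier, where 1 OGD array was left and was assumed to vary like the other groups. With 1 array left out these counts ran from 1705 (without OGD replicate 1 at 7 h) to 6399 (without OGD replicate 1 at 24 h), from 2087 to 6470 and from 767 to 2907. Member probes numbered 0, 0 and 0 under spike-in scaling, 1 at 7 h and 0 for the difference with normexp, 2 at 24 h with 75th percentile centring, quantile normalization or without dim probes, 0 at 7 h with scan session, and 2 for the difference without the 3 arrays. With 1 array left out they ran from 1 to 4, from 1 to 2 and from 1 to 5. The cause of these changes was not tested. All member probes were well above background, which does not show that their differences are free of its effect. Normexp background correction changed the sign of several of these differences. With 3 arrays a group, intervals span about 1 log2 unit for most member probes.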
